A study of Rattus norvegicus with 16 samples.

Results

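The genes described here are the nuclear genes of oxidative phosphorylation in the rat ventral prostate. They were chosen by name: symbols in both count tables that start with Nduf, Uqcr or Atp5, the succinate dehydrogenase genes Sdha, Sdhb, Sdhc and Sdhd, and Cox4 to Cox8 genes, without the striated muscle isoforms Cox6a2, Cox7a1 and Cox8b. The rule found 72 genes among the 19709 gene names that the 2 tables share. They comprise 35 subunits of complex I, 7 complex I assembly factors (Ndufaf genes), 4 genes of complex II, 8 of complex III, 17 of complex IV (Ndufa4 and Ndufa4l2 included) and 1 of complex V, Atp5s.

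Messenger RNA was sequenced from ventral prostates of 16 offspring of rat dams fed either of 2 diets. The CTR groups came from dams on a diet with 17% protein, and the GLLP groups from dams given 6% protein through gestation and lactation. At postnatal day (PND) 21 there were 4 CTR and 3 GLLP libraries, and at PND 540 there were 5 CTR and 4 GLLP libraries. The labels do not say which animals share a litter, so p-values measure only the spread between these samples, and in bulk samples fewer cells of a type and less RNA per cell cannot be told apart.

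Oxidative phosphorylation takes place in the inner mitochondrial membrane. Complexes I and II pass electrons from NADH and succinate to ubiquinone, complex III passes them on to cytochrome c, and complex IV passes them to oxygen, while complexes I, III and IV pump the protons that drive the ATP synthase, complex V. Most subunits are encoded in the nucleus and a few of the core ones in mitochondrial DNA. The ventral prostate is a secretory gland whose epithelium depends on androgens.

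Totals ran from 28748604 to 39161666 counts per library. Levels are given as CPM, counts scaled to library size with the TMM method, within each age unless said otherwise. CPM is not divided by transcript length, so levels are compared between libraries and never between genes. A library that stands apart touches each diet comparison. At PND21 GLLP replicate 4 was the highest of the 7 libraries for 49 of 67 tested members (73.1%, against 24.1% of all genes tested). At PND540 CTR replicate 5 lay above the other 8 libraries for 54 of 68 members (79.4%, against 34.3% of all genes tested). In CTR replicate 1 at PND21, 12 of the 13 mitochondrially encoded subunits had 0 counts. Secretory markers of the ventral prostate were abundant in every library. At PND21 their summed CPM ran from 61289 to 76096 in CTR and from 42753 to 59605 in GLLP, so that every GLLP library lay below the CTR range. Of the 11 tested there, 5 were positive and 0 were called. At PND540 the sum ran from 21592 to 93988 in CTR and from 17598 to 83805 in GLLP.

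The upstream sequences of 61 members could be matched in RefSeq promoters (GRCr8, 250 bases before to 50 after each gene start), and 3 short motifs were searched there on both strands. GCGCATGC, a stretch within the site of the factor NRF1, was present in 7 members (11.5%) and in 2.77% of 27457 genes. ACTTCCGG, the kind of site read by GABP, was present in 6 members (9.84%) and in 4.20% of all genes, and TCAAGGTCA, the kind read by estrogen-related receptors, in 1 (1.64%) and in 0.441%. A match describes the letters only and says nothing of binding. The stretches below are 60 bases each, 5′ to 3′ on the gene's strand with the match in capitals, and are shown for 3 genes whose values are given later. Ndufaf5 and Ndufaf4 are complex I assembly factors and Ndufs1 is an iron-sulfur subunit of complex I.
Ndufaf5, chr3:147961552-147961611, plus strand: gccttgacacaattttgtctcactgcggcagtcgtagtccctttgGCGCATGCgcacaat
Ndufaf4, chr5:43401611-43401670, plus strand: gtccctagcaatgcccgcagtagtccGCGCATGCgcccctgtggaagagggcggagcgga
Ndufs1, chr9:72073772-72073831, minus strand: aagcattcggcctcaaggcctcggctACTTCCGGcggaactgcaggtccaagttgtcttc
The match began 15 bases before the gene start in Ndufaf5, 158 in Ndufaf4 and 200 in Ndufs1.

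The first comparison asks whether the maternal diet changed these genes at PND21. No member passed the threshold (edgeR quasi-likelihood test, adjusted p under 0.05 over all genes tested): 0 of 67, against 1.11% of all 14915 genes. With no adjustment 3 members had p under 0.05, against 19.3% of all genes, and DESeq2 called 1, Cox7a2l. The median log2 fold change of GLLP over CTR was 0.04 over the members and -0.0038 over all genes. The values were positive for 46 of 67 members, against 49.5% of all genes. Without GLLP replicate 4 they were positive for 15 of 67, and the median was -0.06. Without CTR replicate 1 the median was 0.06.

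**Figure D1:**
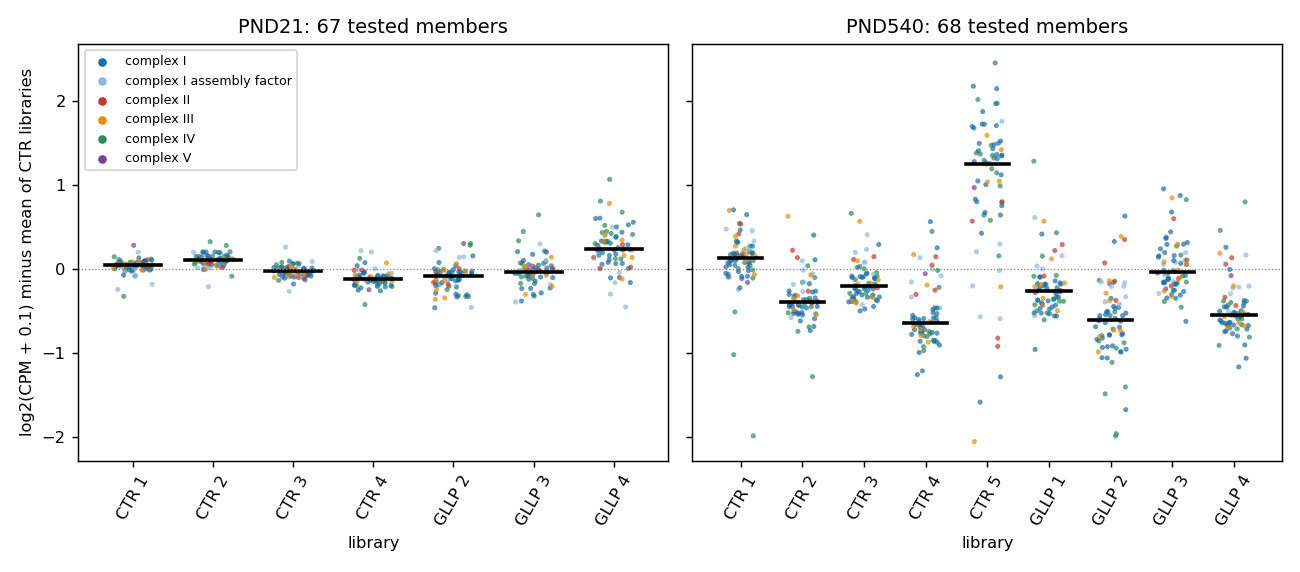
Each point is 1 tested member in 1 library, as log2(CPM + 0.1) less the mean of the CTR libraries of that age, coloured by complex, and the black line is the median in that library. GLLP replicate 4 at PND21 and CTR replicate 5 at PND540 stand above the rest, and a few members of CTR replicate 5 fall far below.

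Cox7a2l, which joins complexes III and IV into supercomplexes, had the smallest p of the members at PND21. Its CPM was 115, 126, 128 and 118 in the CTR libraries and 150, 166 and 162 in the GLLP libraries. The groups did not overlap. The log2 fold change was 0.39 (SE 0.08, 1.31-fold), with an adjusted p of 0.0664. It ran from 0.36 to 0.42 with any 1 library left out. It stood at 0.42 with an adjusted p of 0.0213 without GLLP replicate 2, at 0.38 with 0.00398 by DESeq2, and at 0.53 with 0.0183 when libraries were scaled by their totals alone. In the joint fit of both ages it was 0.38 with an adjusted p of 1.

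Ndufaf5, which modifies a subunit of the growing complex I, read 9.81, 10.1, 9.92 and 9.97 CPM in CTR and 11.6, 12.3 and 14.1 in GLLP. These groups did not overlap either, and the CTR libraries differed little (SD 0.131). Its log2 fold change was 0.34 (SE 0.12, adjusted p = 0.180). Cox4i2, the isoform of subunit 4 linked to low oxygen, had 2.48, 2.15, 2.40 and 2.15 CPM in CTR and 2.73, 2.91 and 3.72 in GLLP. It differed by 0.44 on the log2 scale (SE 0.19, adjusted p = 0.248). Ndufv3, a small subunit of the NADH-binding arm, ran from 51.1 to 59.5 CPM in CTR and from 61.8 to 64.1 in GLLP, a log2 difference of 0.18 (SE 0.08, adjusted p = 0.278). These 4 genes were the only members whose groups did not overlap, all of them higher in GLLP and none lower, against 17.1% of all genes in either direction, 9.49% higher and 7.6% lower.

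The median log2 fold change at PND21 was 0.04 for complex I (25 of 33 positive), -0.11 for its assembly factors (2 of 7), -0.02 for complex II (1 of 4), 0.03 for complex III (5 of 8) and 0.10 for complex IV (12 of 14). Without GLLP replicate 4 the corresponding medians were -0.06 (6 of 33), -0.11 (1 of 7), -0.04 (1 of 4), -0.14 (2 of 8) and -0.06 (4 of 14). Sdha, the flavoprotein of complex II, is an example of a gene with close values: 184, 179, 172 and 176 CPM in CTR and 159, 182 and 180 in GLLP. Cox4i1, the common isoform of subunit 4, read 366, 358, 333 and 300 CPM in CTR and 321, 353 and 484 in GLLP, so that replicate 4 alone lay above the CTR range. Its log2 fold change was 0.19 (SE 0.15, adjusted p = 0.501). Cox6a1, the broadly expressed isoform of subunit 6a, went the other way, at -0.12 on the log2 scale (SE 0.13, adjusted p = 0.622).

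**Figure D2:**
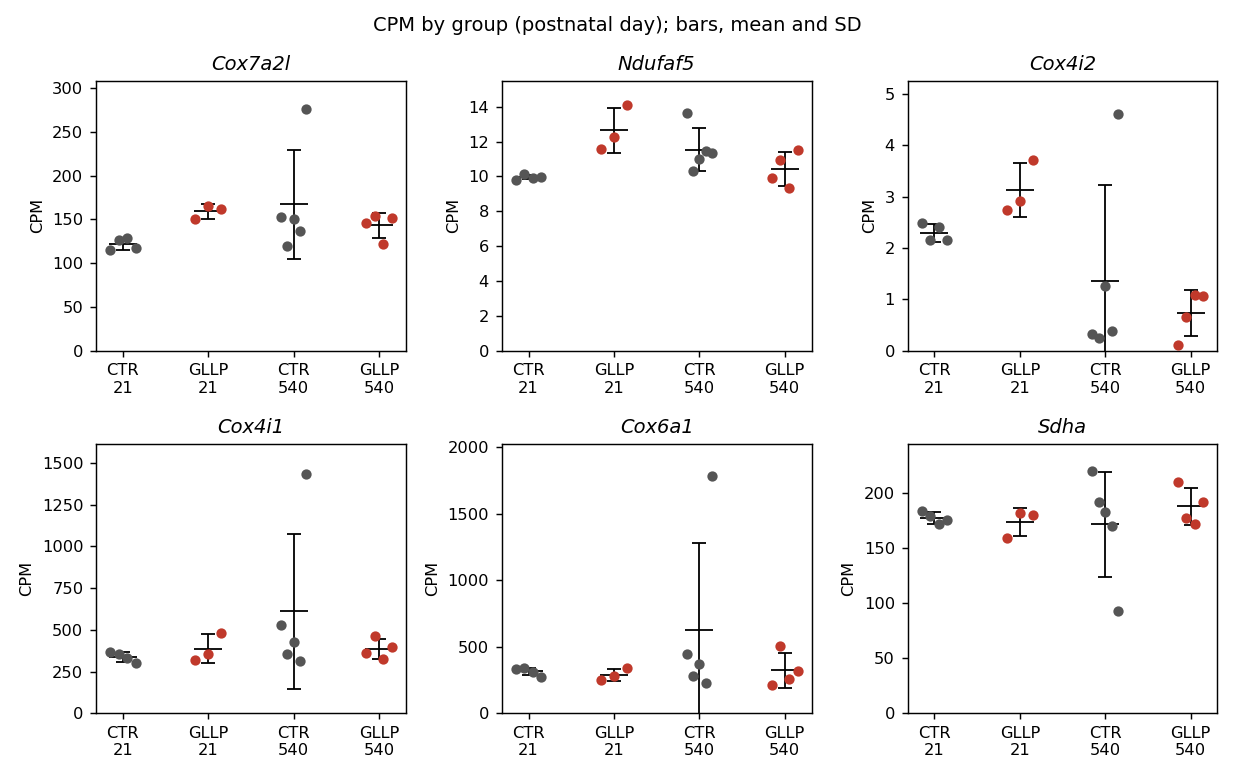
CPM of 6 members in every library (points), with mean and SD (bars, cut at 0), by diet and postnatal day, scaled within each day. At PND21 the diet groups do not overlap for Cox7a2l, Ndufaf5 and Cox4i2, none of them called by edgeR. Groups did not overlap for 4 of 67 members and for 17.1% of all genes tested. At PND540 CTR replicate 5 is the point far above the rest for Cox4i1 and Cox6a1 and below it for Sdha.

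Summed over the members, the CTR libraries held 6198, 6420, 5855 and 5535 CPM and the GLLP libraries 5565, 5874 and 7207. GLLP replicates 2 and 3 lay inside the CTR range and replicate 4 above it. Among members above 5 CPM the median coefficient of variation was 7.87% in CTR, 15.4% in GLLP and 4.07% between GLLP replicates 2 and 3. Over all genes of that level it was 8.28%, 13.4% and 8.27%. The members that replicate 4 placed above the other 6 libraries had a median gene span of 6.70 kb in RefSeq, and the 4 that it placed below had 27.4 kb. All genes tested showed 12.5 and 48.0 kb in the same order. The part of gene span in these values was not tested. The summed CPM of basal epithelial markers was 1210 in GLLP replicate 4 and from 295 to 749 in the other 6 libraries. That of macrophage markers was 110 against 56.6 to 99.3, and that of smooth muscle markers 3911 against 3072 to 3593. Sums of secretory, skeletal muscle, fibroblast, adipocyte, endothelial, and T and B cell markers lay inside the range of the others. The part of these markers in the values of the members was not tested.

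Markers of skeletal muscle moved with the diet at PND21. All 14 tested of 16 listed were called higher in GLLP, and their summed CPM ran from 365 to 446 in CTR and from 1058 to 1266 in GLLP. Of the 3 striated muscle isoforms left out of the members, Cox6a2 and Cox8b moved with them, and Cox7a1 was not tested. Cox6a2 had 0.664, 0.255, 0.180 and 0.179 CPM in CTR and 5.18, 3.36 and 3.60 in GLLP, a log2 difference of 3.64 (SE 0.42, adjusted p = 0.00486). Cox8b was at 0 in 3 of 4 CTR libraries and between 1.40 and 3.18 CPM in GLLP, and was also called. Their part in the values of the members was not tested. Slc25a4, the adenine nucleotide carrier of heart and skeletal muscle, was the 1 called gene of 6 nucleotide and phosphate carriers and pores, with 82.3, 91.9, 92.9 and 85.4 CPM in CTR and 115, 142 and 147 in GLLP, a log2 difference of 0.61 (SE 0.10, adjusted p = 0.0298).

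The other lists of the pathway had no called gene at PND21. Of 12 tested mitochondrially encoded subunits 6 were positive (median 0.0044). None of the 13 names, as written in the list, occurs in the PND540 table, so these subunits were not analysed at that age. At PND21 their summed CPM was 2931 in CTR replicate 1, from 41850 to 53151 in the other CTR libraries and from 34647 to 43603 in GLLP. Without CTR replicate 1, an alternative chosen after seeing the data, 0 of 12 were positive, with a median of -0.40, 5 at an unadjusted p under 0.05 and 0 called by edgeR. The median log2 fold change was 0.05 over 4 electron carriers, -0.05 over 37 assembly factors of the other complexes and -0.08 over 15 citric acid cycle genes. It was -0.04 over 11 regulators of mitochondrial genes, among which Nrf1 had 27.4 ± 0.416 CPM in CTR (SD, n = 4) and 28.0 ± 1.65 in GLLP (SD, n = 3).

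Most ATP synthase genes carry different names in the 2 tables and so fall outside the rule. RefSeq synonyms paired 17 of them. None was called at PND21, where 11 of 16 tested were positive with a median of 0.04. Atp5f1b, the catalytic beta subunit (named Atp5b in the PND540 table), had 1027 ± 41.3 CPM in CTR (SD, n = 4) and 1131 ± 119 in GLLP (SD, n = 3), a log2 difference of 0.14 (SE 0.11, adjusted p = 0.494). Atp5s, the 1 complex V member, ran from 6.69 to 9.70 CPM in CTR and from 7.41 to 9.84 in GLLP.

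At PND540 the same comparison asks whether any difference was present in old animals. Again 0 of 68 members passed, against 0% of all 14767 genes. No member had an unadjusted p under 0.05 by edgeR (0.833% of all genes), the smallest adjusted p was 0.914, and DESeq2 called 0 members with 3 at an unadjusted p under 0.05. The log2 fold change was negative for 60 of 68 members, with a median of -0.54 against -0.00030 over all genes. Without CTR replicate 5 the median was -0.09, with 53 of 67 negative. No member had groups that did not overlap, against 0.393% of all genes.

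**Figure D3:**
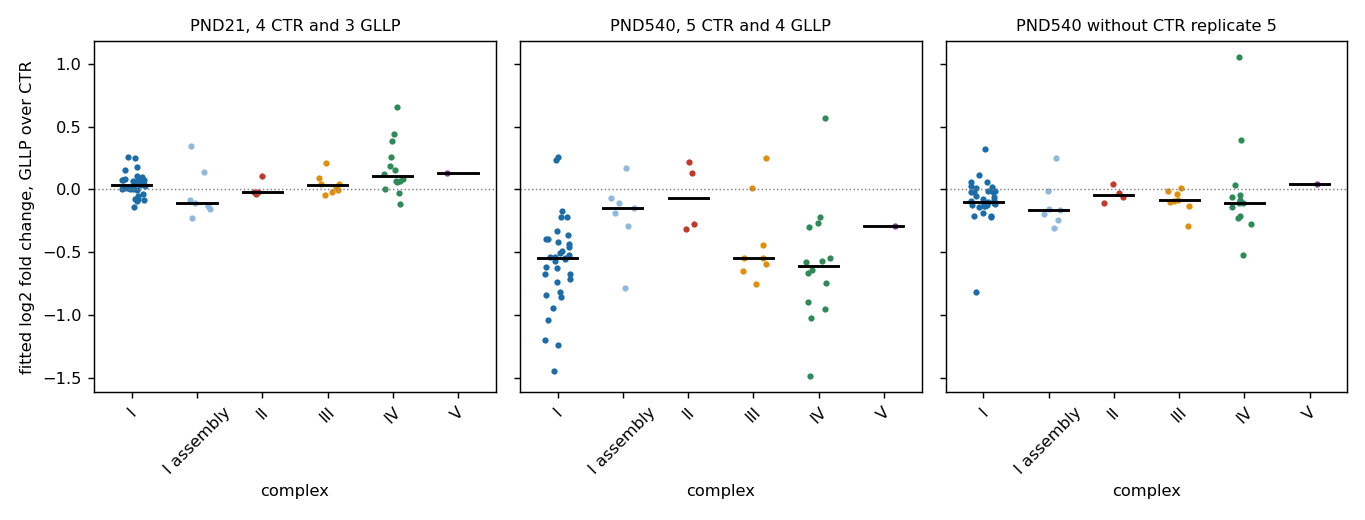
Fitted log2 fold change of GLLP over CTR for each tested member (points) and the median (black lines), by complex. At PND540 the medians of complexes I, III and IV lie between -0.54 and -0.61 with all libraries (middle) and between -0.09 and -0.11 without CTR replicate 5 (right).

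With all 9 libraries the median log2 fold change at PND540 was -0.54 for complex I, -0.15 for its assembly factors, -0.07 for complex II, -0.55 for complex III and -0.61 for complex IV. Without CTR replicate 5 the corresponding medians were -0.10, -0.16, -0.04, -0.09 and -0.11. Cox4i1 is typical of complex IV, with 530, 359, 427, 314 and 1431 CPM in CTR and 395, 361, 462 and 323 in GLLP. The GLLP values lie inside the range of the first 4 CTR libraries, and replicate 5 holds more than the rest. Its log2 fold change was -0.67 (SE 0.44, adjusted p = 0.914). Cox7a2l, first at PND21, read 153, 120, 150, 137 and 276 CPM in CTR and 151, 145, 154 and 122 in GLLP, a log2 difference of -0.22 (SE 0.26, adjusted p = 0.914).

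CTR replicate 5 was not above the other libraries for all members. Its ratio to the median of the other 8 libraries had a median of 3.05 and ran from 0.161 to 8.74. Cox6a1 had 1783 CPM there and 210 to 508 elsewhere. Ndufa11, a membrane subunit of complex I, had 407 CPM and 47.3 to 86.7 elsewhere. In complex I 32 of 34 tested members lay above all other libraries, and in complex IV 12 of 14. Ndufaf3 was the single assembly factor of 7 above the others, with 132 CPM against 24.8 to 36.3.

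In CTR replicate 5, 8 members lay below all other libraries (11.8%, against 36.4% of all genes tested), among them large catalytic and core subunits. Uqcrc2, a core subunit of complex III, had 23.6 CPM there and 111 to 177 elsewhere. Ndufs1 had 20.1 CPM against 72.1 to 96.9, and Sdha had 93.1 against 170 to 220. Complex II was split, Sdha and the membrane anchor Sdhc lying below the other libraries and Sdhb and Sdhd above. The remaining genes below were Ndufa10l1, Uqcrfs1, Ndufaf1 and Ndufaf4. The 54 members above the others had a median gene span of 7.13 kb and the 8 below 19.0 kb, and over all genes tested the medians were 12.5 and 42.6 kb. The part of gene span in this pattern was not tested.

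**Figure D4:**
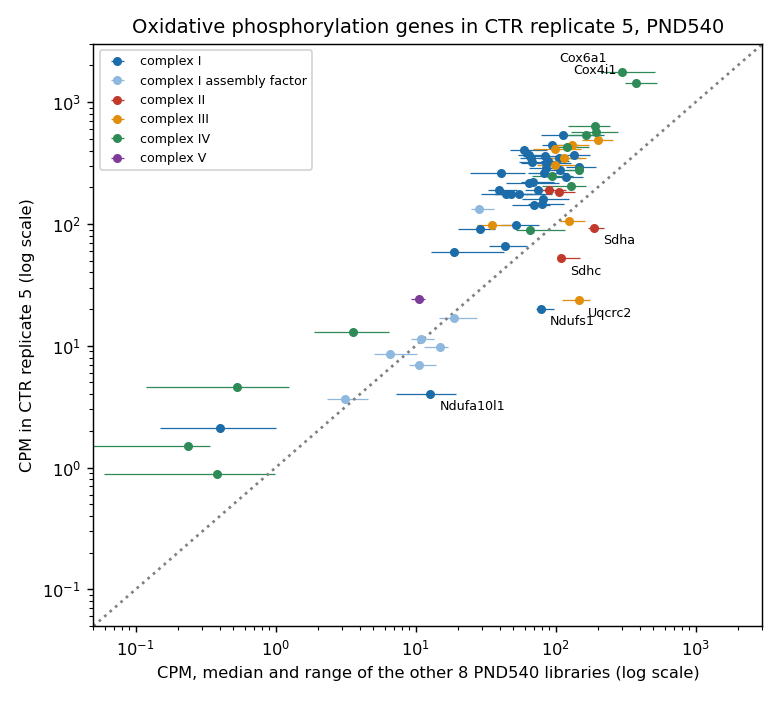
CPM of each tested member in CTR replicate 5 at PND540 (vertical) against the median of the other 8 libraries (horizontal, with bars from lowest to highest), both on log scales, with the line of equal values dotted. Most members lie above the line, and Uqcrc2, Ndufs1, Sdha and Sdhc lie below it.

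In sum the members took 17099 CPM in CTR replicate 5 and 4675 to 7791 in the other 8 libraries. Among members above 5 CPM the median coefficient of variation in CTR was 61.8% with replicate 5 and 22.5% without it, and it was 19.7% in GLLP. All genes of that level had 35.4%, 16.1% and 17.7%. Markers of some other cell types also stood apart in this library. The summed CPM of basal epithelial markers was 1205 in CTR replicate 5 and from 164 to 407 in the other 8 libraries. That of macrophage markers was 386 there and from 81.8 to 228 in the others. Sums of skeletal muscle markers (128 against at most 118) and smooth muscle markers (1466 against at most 1411) lay slightly above the others. Those of fibroblast, adipocyte, endothelial, and T and B cell markers lay inside the range of the others. Secretory markers summed to 62712 CPM there, inside the range of 17598 to 93988 over the others. Their part in the values of the members was not tested. Of the 17 renamed ATP synthase genes, CTR replicate 5 lay above all others for 13 and below for 1, and their median log2 fold change was -0.66. Their median without that library is not given here. None was called, and 1, Atp5f1, had an unadjusted p under 0.05 by edgeR (0.833% of all genes). It had 20.3, 0.979, 17.9, 1.12 and 0.756 CPM in CTR and 0.538 to 1.23 in GLLP, a log2 difference of -3.39 (SE 1.12, adjusted p = 0.914). Named Atp5pb at PND21, it had at most 0.226 CPM there and was not tested.

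The age comparisons set PND540 against PND21 within each diet group, with all 16 libraries on 1 scale for the CPM given here. The 2 tables were made with different annotations, so annotation and age cannot be told apart. In CTR 10 of 68 members were called, 6 higher and 4 lower at PND540, against 30.5% of all genes tested (17.3% higher and 13.2% lower). In GLLP 11 of 67 were called, 4 higher and 7 lower, against 36.2% (19.1% higher and 17.1% lower). Both shares lie below those of all genes. The median log2 change was 0.48 in CTR (all genes 0.07) and -0.05 in GLLP (all genes 0.02), and without CTR replicate 5 it was 0.08 in CTR, with 17 members called. Leaving out any 1 CTR library of PND21 gave 6 calls in CTR, and leaving out GLLP replicate 2, 3 or 4 of PND21 gave 4, 3 and 6 in GLLP. The share of all genes called in these fits is not given here, so such counts do not set the members apart from other genes.

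**Figure D5:**
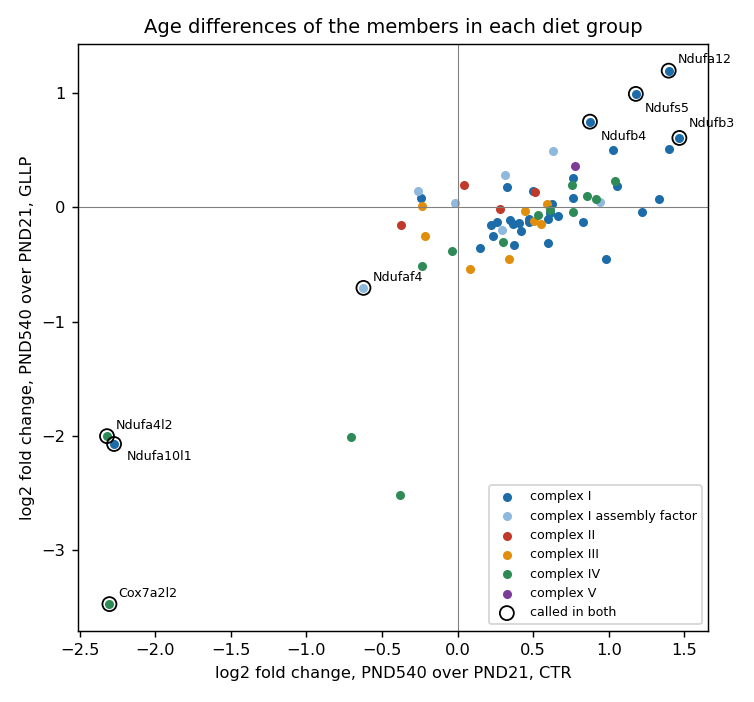
Log2 fold change of PND540 over PND21 in CTR (horizontal) and in GLLP (vertical) for the members tested in both, coloured by complex, with the 8 called in both circled and named. Cox7a2l2, Ndufa10l1 and Ndufa4l2 are the lowest of the circled genes in both diet groups, and Ndufa12, Ndufs5, Ndufb3 and Ndufb4 lie above 0 in both.

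Both diet groups called 8 of these genes, each in the same direction. Ndufs5, an accessory subunit of complex I, was higher at PND540. In CTR it had 54.1 ± 4.92 CPM (SD, n = 4) at PND21 and 123 ± 40.3 (SD, n = 5) at PND540, a log2 change of 1.18 (SE 0.24, adjusted p = 0.00475). In GLLP it had 48.9 ± 12.0 (SD, n = 3) and 98.4 ± 28.9 CPM (SD, n = 4), a log2 change of 0.99 (SE 0.25, adjusted p = 0.0149). The accessory subunits Ndufb4, Ndufa12 and Ndufb3 were also higher at PND540 in both groups, with log2 changes of 0.88, 1.40 and 1.47 in CTR and 0.75, 1.20 and 0.61 in GLLP. Without CTR replicate 5 of PND540 the changes in CTR were 0.70, 0.93 and 0.77, all 3 still called. Without GLLP replicate 3 of PND540 that of Ndufa12 in GLLP was 0.77 and still called.

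The other 4 genes were lower at PND540 in both diet groups, where age and annotation cannot be told apart. Ndufa4l2, a paralogue of the complex IV subunit Ndufa4 that is induced by low oxygen, went from 2.40 ± 0.447 (SD, n = 4) to 0.478 ± 0.341 CPM (SD, n = 5) in CTR and from 2.86 ± 0.352 (SD, n = 3) to 0.718 ± 0.463 CPM (SD, n = 4) in GLLP. Ndufaf4 changed by -0.62 in CTR and by -0.70 in GLLP on the log2 scale. Cox7a2l2 changed by -2.30 and -3.47 and Ndufa10l1 by -2.27 and -2.07. The annotations bear on these last genes, since Cox7a2 and Ndufa10 were read in the PND540 table alone (159 and 78.0 CPM in CTR there, on the scale of that age) and RefSeq lists Ndufa10 as a synonym of Ndufa10l1.

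Cox7a2l2 and Ndufa10l1 stayed called in both diet groups with any 1 library left out. Ndufa4l2, Ndufb4 and Ndufs5 did so in CTR, and in GLLP they lost the call in 4, 2 and 2 of 7 such fits. Ndufaf4 lost it in 8 of 9 fits in CTR and in 1 of 7 in GLLP. Ndufa12 lost it in 4 of 9 and 3 of 7 fits, and Ndufb3 in 6 of 9 and 3 of 7.

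The remaining calls were made in 1 diet group, and passing in 1 group does not show a difference between them. Ndufs6 and Ndufv3 were called in CTR, with log2 changes of 2.76 and 1.40 (2.15 and 0.72 without CTR replicate 5 of PND540, both still called). With any 1 library left out, Ndufs6 lost its call in 0 of 9 fits and Ndufv3 in 6 of 9. Cox4i2, Cox6b2 and Uqcrb were called in GLLP, where Cox4i2 and Cox6b2 each lost the call in 4 of 7 such fits. Ndufs6 stayed low throughout, at 0.147 ± 0.0432 (SD, n = 4) and 1.03 ± 0.843 CPM (SD, n = 5) in CTR, and RefSeq gives this name to a coding gene and also as a synonym of the pseudogene Ndufs6-ps1. Uqcrb, a small subunit of complex III, ran in GLLP from 48.7 to 67.4 CPM at PND21 and from 32.6 to 46.5 at PND540, a log2 change of -0.54 (SE 0.17, adjusted p = 0.0356). It lost its call in 5 of 7 fits with 1 library left out.

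The test of that difference, the change of the diet effect between the ages, called 0 of 68 members, against 0.0917% of all genes tested. By edgeR 2 members, Ndufs6 and Ndufaf5, had an unadjusted p under 0.05 (5.17% of all genes), and DESeq2 called 0 with 2 at that level. Ndufaf5 had a log2 difference of -0.48 (SE 0.22, adjusted p = 0.738). The median was -0.55 over the members and -0.14 without CTR replicate 5.

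Some members were hardly detected. No member was near 0 in 1 table and measured in the other, by the rule of a mean under 1 CPM in 1 and at least 5 CPM in the other. Under 1 CPM in both were 6: Ndufs6, Ndufa1, Cox6b2, Cox6c-ps1, Cox7b2 and Cox8c. Of these Cox6b2, the testis isoform of subunit 6b, was tested at both ages and Ndufs6 at PND540. Cox6c-ps1 had 0 counts in every library, and Ndufa1, a small subunit of complex I, had 0 counts in every PND21 library and a mean of 0.244 CPM at PND540. Low counts under these names are not read as absence of expression, since the counter and the gene annotation are not given.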

How the data were processed

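Each age has its own table of counts, which the authors deposited as unnormalized whole numbers per gene. The submitters' processing notes list STAR, edgeR 3.34.0 and the build Rnor_6.0, with no role stated. Which counter, gene annotation and strand setting were used is not given in the sources used here. All 16 libraries entered, with totals of 28748604 to 39161666 counts. Diet was tested inside each table, and the age effects and the diet by age contrast over the gene names in both tables. The fit was edgeR 4.0.16 in R 4.3.3 (filterByExpr, TMM, robust quasi-likelihood test, Benjamini-Hochberg over all genes tested, threshold 0.05). The test was also run on simulated counts drawn around common means, with no library set apart. The outcome is not given here, and no conclusion rests on it. Figures were drawn with matplotlib 3.10.9. Alternatives were RLE size factors, library size alone, leaving the filter out, filtering at 1 CPM, non-robust fits, DESeq2 1.42.0, a replicate block, a joint fit and each library left out. The members and lists were chosen with earlier results of these data known. Named genes were, by complex, the member with the highest mean and that with the smallest p, the 3 highest and 3 lowest fold changes, a set of isoforms, and for age the 2 with the smallest p in each complex. Other genes named were chosen after their values were seen. Names and gene spans came from RefSeq (GRCr8), whose table gives no transcript length, so no levels per length were computed. Medians over the members carry no test.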

Additional observations from a re-analysis of the deposited data

Results flagged for a closer look

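In the CTR group at PND540 a single library, replicate 5, lay far from the other 4. Among 5 libraries the gap of the highest one to the next was compared with the whole range of the group, and chance alone marks about 1 group in 20. The summed CPM was 7919 for complex I, 6221 for complex IV, 24.0 for complex V and 17099 for all members in that library. The same held for Cox6a1 (1783 CPM), Cox4i1 (1431), Ndufb11 (540.0), Cox8a (539), Cox5a (431), Cox7a2l (276), Ndufa3 (262), Ndufaf3 (132), Atp5s (24.0), Cox4i2 (4.60) and Cox6b2 (1.51). Over all tested members 32 of 68 were apart in this way in CTR at PND540, each of them in replicate 5 (47.1%, against 25.8% of all genes tested). In GLLP at that age 4 of 68 were (5.88%, against 7.35%), and in CTR at PND21 0 of 67 were, against 5.16%.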

How the results depend on the processing

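The count of members called for diet at PND21 was 1 in place of 0 with library size alone and with DESeq2, and 0 to 1 with 1 library left out. For age in CTR the 10 calls became 6 to 17 with 1 library left out, the highest without CTR replicate 5 of PND540, which kept all 10. Leaving out any CTR library of PND21 gave 6. For age in GLLP the 11 calls became 19 with library size alone and 3 to 11 with 1 library left out, with 4 without GLLP replicate 2 of PND21, 3 without replicate 3 and 6 without replicate 4. Library size alone shifted the median of all genes at PND21 by 0.14, and the member median stood at 0.18 with 65 of 67 positive. The replicate block uses the replicate number of the labels. It gave 7 calls for age in GLLP, 14 for age in CTR and 0 for the other comparisons. It moved the median for diet at PND540 to -0.08. At PND540 number 5 occurs in CTR alone, so the block fits that library exactly and takes it out of the diet contrast. The median is thus close to that without CTR replicate 5 (-0.09). Number 1 at PND21 likewise occurs in CTR alone. Same-numbered libraries did not deviate together (correlations of their deviations of -0.14, 0.15 and -0.12 at PND21 and of -0.17, -0.09, 0.05 and 0.30 at PND540), so the numbers are not read as pairs. The cause of the other differences between settings was not tested. The joint fit of both ages, run for the diet effects, called 0 members at either age. Leaving out CTR replicate 1 of PND21 and CTR replicate 5 of PND540 together, an alternative chosen after seeing the data, gave 13 calls for age in CTR, which kept all 10, and 0 for diet by age. The counts of calls in these settings stand without the share of all genes called in the same fit. They therefore do not show whether the members or the genes in general gained or lost calls. Groups held 3 to 5 libraries, and the biological coefficient of variation was 46.2% at PND540 and 19.6% at PND21.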

Other observations

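Some pathway genes outside the members also differed in CTR replicate 5 at PND540. Gabpa, a subunit of the factor GABP, had 4.54 CPM there and 19.1 to 30.7 in the other 8 libraries. Cs, the citrate synthase that opens the citric acid cycle, had 58.5 CPM there and 86.6 to 136 elsewhere. Cyc1, the cytochrome c1 subunit of complex III, had 236 CPM there and 99.8 to 168 elsewhere, so that complex III genes lay on both sides in 1 library. These 3 genes were chosen after their values were seen, and they do not stand for their lists. The regulators, Gabpa among them, summed to 446 CPM there and 341 to 416 elsewhere. The citric acid cycle genes, Cs among them, summed to 1852 CPM there and 1448 to 2141 elsewhere.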
